A study of Mus musculus with 2 samples.

Results

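The 32 genes described here are SREBP targets and SREBP pathway genes of sterol and fatty acid synthesis, chosen by name from the 43346 features of the deposited gene table. They comprise 7 enzymes of the mevalonate arm, 10 enzymes from squalene to cholesterol, 11 enzymes of fatty acid synthesis, elongation and desaturation, and 4 regulators or carriers. RNA came from X63/0 (X63-Ag8.653) cells, a mouse plasmacytoma line of the B cell lineage used as a fusion partner for hybridomas. The treated culture received 30 mM cycloleucine, a methionine analogue that blocks synthesis of the methyl donor S-adenosylmethionine (SAM), for 3 h, and the other culture was untreated. Both grew in serum-containing medium, which supplies lipids. The design text speaks of triplicates, but 1 library per group was analysed here. Every difference below therefore compares these 2 libraries without replicates, so no p-values could be computed.

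Cells make cholesterol from acetyl-CoA through mevalonate, isoprenoid diphosphates, squalene and lanosterol, and make fatty acids from the same acetyl-CoA through malonyl-CoA. The transcription factors SREBP1 and SREBP2 are held in the endoplasmic reticulum with SCAP by INSIG proteins when sterols are plentiful, and are cleaved and move to the nucleus when sterols are scarce, where they raise transcription of both pathways. In Caenorhabditis elegans, low SAM or low phosphatidylcholine is known to activate SBP-1, the worm SREBP. Secretory cells of the plasma cell lineage use these lipids to build endoplasmic reticulum.

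The promoter windows shown first are those of the 2 genes with the lowest fold (Mvk and Mvd), of the 1 gene without an exon read (Hsd17b7), and of Hmgcs1, a classical SREBP target for comparison. RefSeq windows on GRCm38.p6, from 250 bases before to 50 bases after a gene's start, were found for 25 of the 32 genes, 31 windows in all. Capitals mark CCAAT, the NF-Y box, on either strand, and in Hmgcs1 also the 9-letter sterol regulatory element TCACNCCAC. None of these matches overlaps another in the windows shown. They lie at chr5:114444019-114444318 (plus strand, Mvk), chr8:122443373-122443672 (minus strand, Mvd), chr1:169969156-169969455 (minus strand, Hsd17b7) and chr13:119690101-119690400 (plus strand, Hmgcs1), and each is written 5' to 3' in the direction of its gene.
Mvk: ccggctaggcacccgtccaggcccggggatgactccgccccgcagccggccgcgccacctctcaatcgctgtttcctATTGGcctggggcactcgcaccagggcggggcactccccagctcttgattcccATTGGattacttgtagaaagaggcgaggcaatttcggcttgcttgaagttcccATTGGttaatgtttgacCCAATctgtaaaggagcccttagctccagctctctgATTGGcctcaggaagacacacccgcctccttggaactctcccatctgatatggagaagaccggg
Mvd: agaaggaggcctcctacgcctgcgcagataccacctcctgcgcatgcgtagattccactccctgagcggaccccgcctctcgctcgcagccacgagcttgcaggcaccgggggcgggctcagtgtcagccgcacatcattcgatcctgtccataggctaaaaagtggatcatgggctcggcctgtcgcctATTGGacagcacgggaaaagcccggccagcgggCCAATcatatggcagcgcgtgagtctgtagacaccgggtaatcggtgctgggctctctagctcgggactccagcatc
Hsd17b7: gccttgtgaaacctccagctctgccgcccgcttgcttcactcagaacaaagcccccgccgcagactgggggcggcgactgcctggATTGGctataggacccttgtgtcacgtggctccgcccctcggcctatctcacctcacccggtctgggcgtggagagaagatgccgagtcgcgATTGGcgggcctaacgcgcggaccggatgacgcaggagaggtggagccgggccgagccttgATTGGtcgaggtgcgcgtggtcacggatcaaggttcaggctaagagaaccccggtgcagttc
Hmgcs1: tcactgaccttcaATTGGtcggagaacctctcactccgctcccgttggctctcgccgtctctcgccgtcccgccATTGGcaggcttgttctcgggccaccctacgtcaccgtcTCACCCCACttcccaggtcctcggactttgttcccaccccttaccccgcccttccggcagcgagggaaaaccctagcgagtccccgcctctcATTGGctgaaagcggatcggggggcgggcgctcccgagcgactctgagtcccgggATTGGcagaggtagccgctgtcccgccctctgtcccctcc

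At least 1 CCAAT box lay in 23 of the 31 windows (74.2%), against 37.4% of all 32851 windows in the RefSeq table. The GC box GGGCGG, bound by SP1, lay in 22 (71.0%), against 35.7% of all windows. The E-box CACGTG lay in 5 (16.1%), against 7.15%, and TCACNCCAC in 1 (3.23%), that of Hmgcs1, against 1.24%. All were searched on both strands. Mvk had 5 CCAAT boxes, Hmgcs1 had 4, Hsd17b7 had 3 and Mvd had 2. These matches describe letters in the windows, not bound sites.

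Gene reads numbered 31951946 in the cycloleucine library and 27127865 in the untreated library, with 49.4% and 48.4% of them in exons. The 32 genes took 0.381% of exon reads with cycloleucine and 0.402% without. Levels are RPKM, exon reads per kilobase of exon scaled to the gene reads of the library, and a log2 fold change is that of RPKM plus 0.1, cycloleucine over untreated, which understates changes of low genes. Plasma cell markers were present (7 of 7 measured, summed RPKM 867 with cycloleucine and 860 without). Of 5 B cell markers 2 were measured, Cd79b (52.6 RPKM with cycloleucine and 50.5 without) and Ms4a1 (3.11 and 3.03). Only 28.3% and 34.8% of Ms4a1 exon reads were uniquely placed. Cd79a, Pax5 and Cd22 were not measured, with Cd79a at 1 exon read in either library. Markers of T cells, myeloid cells, fibroblasts, hepatocytes and adipocytes had 0 measured genes among 18, with summed RPKM per list from 0.0406 to 0.495 with cycloleucine and from 0.0459 to 0.373 without. A gene was called measured if its RPKM reached 1 with cycloleucine or without and its exon reads summed to 50 or more. For the 13700 features without an annotated transcript, all gene reads take the place of exon reads in RPKM and in this sum. The rule held for 29 of the 32 genes and for 9613 of all features, 9081 of them with an annotated transcript. Stard4 passed only through the cycloleucine library.

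Most of the pathway was expressed, and the levels ran from undetected to abundant. The 3 genes that were not measured were Hsd17b7, Tm7sf2 and Me1. The highest levels were those of Scd2 (81.7 RPKM with cycloleucine and 78.2 without) and Insig1 (72.3 and 63.7), followed by Fasn, Acly and Fdps at about 30 RPKM. Median levels of the measured genes were 7.79 RPKM with cycloleucine and 8.75 without in the mevalonate arm, 5.83 and 5.86 from squalene to cholesterol, and 11.7 and 11.8 in the fatty acid arm. Exon length in the table ranged from 1241 bases for Fdps to 12174 for Acaca, and RPKM divides by it.

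**Figure D1:**
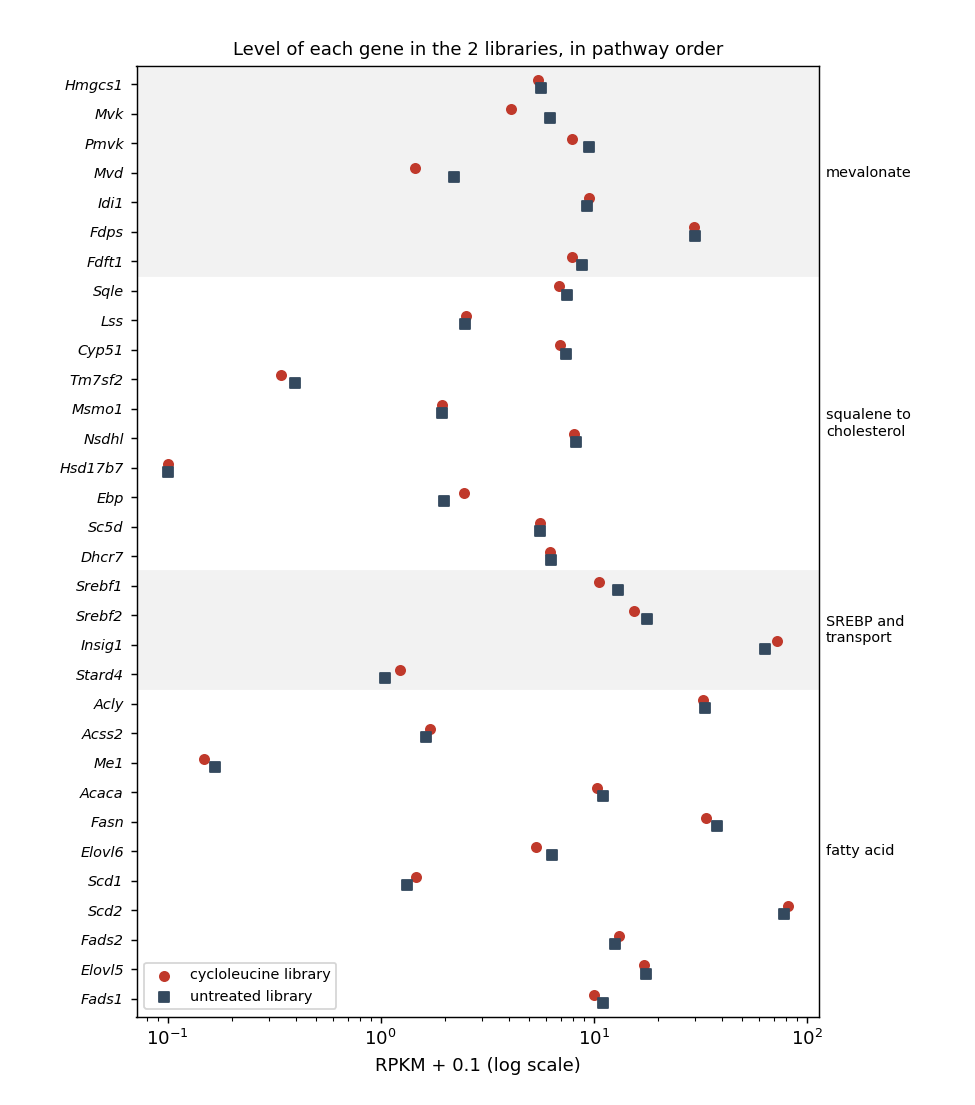
RPKM plus 0.1 (x, log scale) of each of the 32 genes in pathway order from top to bottom, with 1 point for the cycloleucine library and 1 for the untreated library. Hsd17b7 sits at the left edge with 0 reads in both libraries, and the points of most other genes nearly coincide.

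Hsd17b7, a dehydrogenase gene whose product reduces the keto group left by removal of the methyl groups at carbon 4 of the sterol ring, had 0 exon reads in the cycloleucine library and 0 in the untreated library. A count of 0 allows up to 3 reads, which is 0.0184 RPKM with cycloleucine and 0.0217 without. The gene (minus strand of chromosome 1, 169949535 to 169969241, mm10) had 2 intron reads with cycloleucine and 6 without. No other feature in the table overlapped it. The enzymes on either side of this step were expressed. Nsdhl, which acts in the same removal of methyl groups, had 8.03 RPKM with cycloleucine and 8.14 without, and Ebp, the sterol isomerase that comes next, had 2.37 and 1.88. The related mouse myeloma line NS0 is known to need cholesterol in its medium and to lack this transcript. The cholesterol requirement of the X63/0 cultures was not measured here.

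Tm7sf2, one of 2 known genes for the sterol C14 reductase step, was also low, with 27 exon reads with cycloleucine and 28 without (0.243 and 0.296 RPKM). The gene Vps51 overlaps Tm7sf2 and had 645 exon reads with cycloleucine and 622 without. The part of this overlap in the low count was not tested. Me1, the cytosolic malic enzyme that makes NADPH for fatty acid synthesis, had 6 and 7 exon reads (0.0488 and 0.0671 RPKM). With so few reads, neither Tm7sf2 nor Me1 is given a fold change.

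With cycloleucine, 2 of the 29 measured genes were at least 1.5-fold lower and 0 were at least 1.5-fold higher. Among all 9613 measured features, 2.47% were at least 1.5-fold lower and 3.03% at least 1.5-fold higher. Of the 29, 18 lay below 0 in log2 and 11 above, with a median of -0.03, against 49.1% below 0 and a median of 0.0035 over all features. The split depended on the setting. It was 14 below and 15 above from uniquely placed reads, and 21 below and 8 above when scaled by exon reads. Both settings also change the scaling total, which shifts all features, here and in the arms below. The share of all features below 0 was computed only for the main setting. A 95% counting interval, from the exact binomial interval of the cycloleucine library's share in a gene's reads, lay wholly below 0 for 11 genes (37.9%) and wholly above 0 for 2 (6.90%). Over all features these shares were 21.0% below and 22.9% above. The intervals cover counting error only, since reads copied by PCR are not independent molecules when no molecular identifiers mark them, and cultures were not replicated.

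**Figure D2:**
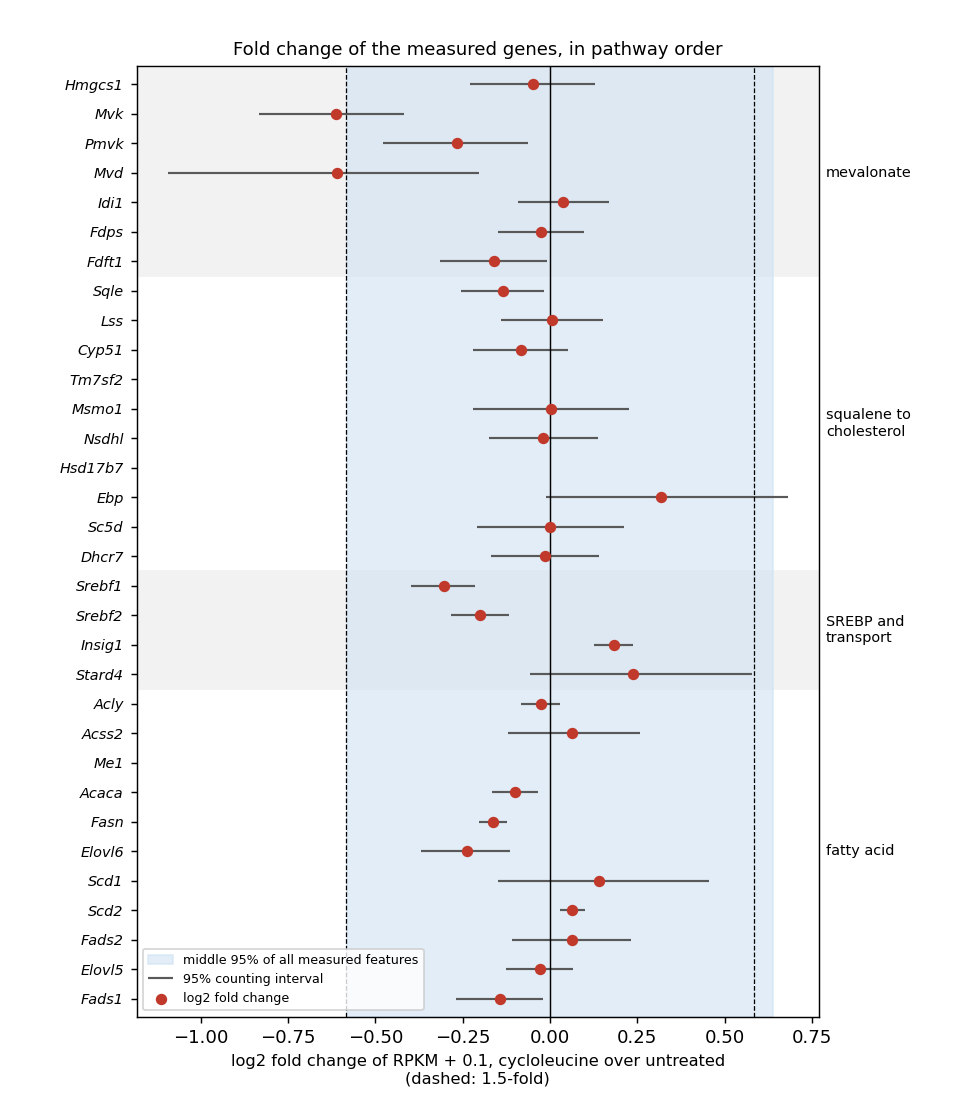
Log2 fold change of RPKM plus 0.1, cycloleucine over untreated (x), of the 29 measured genes in pathway order, with 95% counting intervals of the plain read ratio as bars, the middle 95% of all 9613 measured features shaded and 1.5-fold dashed. Mvk and Mvd lie left of the shaded range and the lower dashed line, and the other points lie inside.

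In the mevalonate arm, 6 of 7 genes lay below 0, with a median of -0.16, and by junction reads 4 lay below. Both genes past 1.5-fold were here, Mvk and Mvd, and they flank Pmvk in the order of the pathway. Mvk, the kinase that phosphorylates mevalonate, had 340 exon reads with cycloleucine and 445 without, and 3.98 and 6.13 RPKM. It was 1.54-fold lower with cycloleucine, with a log2 fold change of -0.61 (-0.83 to -0.42). Its junction reads, which span 2 spliced exons, gave -0.65 (-1.0 to -0.29), with 118 such reads with cycloleucine and 156 without. Mvk lies on the plus strand of chromosome 5 from 114444269 to 114460591.

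Pmvk, the second kinase of this arm, had 7.79 RPKM with cycloleucine and 9.40 without, a log2 fold change of -0.27 (-0.48 to -0.06). Mvd, the decarboxylase that makes isopentenyl diphosphate, had 1.35 and 2.11 RPKM, from 76 exon reads with cycloleucine and 101 without, and was 1.57-fold lower with cycloleucine. Its log2 fold change was -0.61, with a wide interval (-1.10 to -0.20). The gene Mvd (chromosome 8, 122433596 to 122443422, minus strand) sits inside the span of the gene model Gm20388. In Mvd, 98.7% of exon reads with cycloleucine and 99.0% of those without crossed an exon-exon junction, against 4.37% to 46.2% and 1.23% to 39.7% in the other measured genes. It had 0 intron reads in both libraries, while Gm20388 had 362621 gene reads with cycloleucine and 303915 without. The RPKM of Mvd thus rests almost wholly on junction reads, and its level is not comparable with that of the other genes. From uniquely placed reads alone, Mvk and Mvd both stood at -0.58, just short of 1.5-fold, which is 0.585 in log2.

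The remaining genes of the arm differed less in RPKM. Hmgcs1, the synthase that makes HMG-CoA and whose promoter is shown above, had 5.37 RPKM with cycloleucine and 5.56 without (-0.05, interval -0.23 to 0.13). Junction reads of Hmgcs1, 123 with cycloleucine and 84 without, gave 0.31 (-0.11 to 0.72), above its exon interval. Idi1, the isomerase of isopentenyl diphosphate, stood at 0.04 and Fdps, which makes farnesyl diphosphate, at -0.03. Fdft1, the squalene synthase that commits farnesyl diphosphate to sterols, stood at -0.16 (-0.32 to -0.01). Only 34.2% of Fdps exon reads with cycloleucine and 35.8% of those without were uniquely placed, and 65.4% and 64.8% in Idi1, so their counts share reads with similar sequences elsewhere. From uniquely placed reads Fdps was at -0.06. Its junction reads, 540 with cycloleucine and 401 without, gave 0.19 (-0.0033 to 0.38).

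From squalene to cholesterol, 4 of 8 measured genes lay below 0 and 4 above, with a median of -0.0069, and none was 1.5-fold different in either direction. Here 2 lay below 0 from uniquely placed reads and 7 when scaled by exon reads. Sqle, the squalene epoxidase, had 1200 exon reads with cycloleucine and 1119 without, 6.77 and 7.44 RPKM and a log2 fold change of -0.13 (-0.25 to -0.02). Lss, which closes the sterol rings, and Cyp51, the lanosterol demethylase, stood at 0.0050 and -0.08. Of Lss exon reads, 53.2% with cycloleucine and 50.4% without were uniquely placed, and from uniquely placed reads it stood at 0.11. Msmo1, the methyl sterol oxidase, stood at 0.0022, Sc5d, the desaturase of this arm, at 0.00040, Dhcr7, the last reductase, at -0.01, and Nsdhl at -0.02. These genes had nearly equal RPKM in both libraries. Junction reads of Dhcr7, 116 with cycloleucine and 73 without, gave 0.42 (-0.01 to 0.87), above its exon interval. By junction reads 4 of the 8 measured genes of this arm lay below 0 and 4 above.

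Ebp was the highest of the 29, at 0.32 (-0.01 to 0.68), from 175 exon reads with cycloleucine and 118 without. Its junction reads were 30 and 12, a log2 fold change of 1.08 (0.07 to 2.18). Junction reads of Sc5d, 86 with cycloleucine and 50 without, gave 0.54 (0.02 to 1.07), above its exon value.

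Among the regulators, both SREBP genes were lower with cycloleucine and Insig1 was higher. Srebf1, which encodes SREBP1, had 1884 exon reads with cycloleucine and 1978 without, 10.5 and 12.9 RPKM and a log2 fold change of -0.30 (-0.40 to -0.21). Srebf2, which encodes SREBP2, had 2451 and 2391 exon reads, 15.4 and 17.7 RPKM and a log2 fold change of -0.20 (-0.28 to -0.12). The gene Rai1 overlaps Srebf1 and had 1424 exon reads with cycloleucine and 1426 without. Junction reads gave -0.40 for Srebf1 and -0.23 for Srebf2. Insig1, which retains SCAP in the endoplasmic reticulum and is itself a sensitive SREBP target, had 6229 exon reads with cycloleucine and 4660 without, a log2 fold change of 0.18 (0.13 to 0.24). Stard4, a carrier of cholesterol between membranes, had 203 and 144 exon reads and stood at 0.24 (-0.06 to 0.58), while its few junction reads, 13 with cycloleucine and 21 without, went the other way at -0.94.

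In the fatty acid arm, 6 of 10 measured genes lay below 0 and 4 above, with a median of -0.03, and from uniquely placed reads 4 lay below and 6 above. Acly, the citrate lyase that supplies cytosolic acetyl-CoA, had 32.5 RPKM with cycloleucine and 33.1 without (-0.03), and Acss2, which makes acetyl-CoA from acetate, stood at 0.06. The gene Gss overlaps Acss2 and had 389 exon reads with cycloleucine and 318 without. The next enzymes of the pathway were slightly lower. Acaca, the acetyl-CoA carboxylase, stood at -0.10 (-0.17 to -0.04). Fasn, the fatty acid synthase, had 10601 exon reads with cycloleucine and 10077 without, 33.7 and 37.7 RPKM and a log2 fold change of -0.16 (-0.20 to -0.12). Its junction reads, 2453 with cycloleucine and 2569 without, gave -0.31 (-0.39 to -0.23). Elovl6, the elongase of palmitate, was the lowest of the arm at -0.24 (-0.37 to -0.11), with 5.30 RPKM with cycloleucine and 6.26 without.

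Of the stearoyl-CoA desaturases, which put the first double bond into saturated fatty acids, Scd2 was the abundant form. It had 14241 exon reads with cycloleucine and 11565 without, and a log2 fold change of 0.06 (0.03 to 0.10). Scd1 had 1.37 and 1.23 RPKM (0.14, interval -0.15 to 0.46), and 59.9% of its exon reads with cycloleucine and 55.6% without were uniquely placed. It had 10 junction reads with cycloleucine and 2 without, too few to set its fold. In polyunsaturated fatty acid synthesis, Fads2, the first desaturase, stood at 0.06, Elovl5, the elongase, at -0.03, and Fads1, the second desaturase, at -0.14 (-0.27 to -0.02).

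Intron reads, which come mostly from unspliced RNA, were compared with exon reads in the 20 genes whose libraries together held 100 or more intron reads and 200 or more exon reads. The log2 change of the intron to exon ratio was below 0 in 12 and above 0 in 8, with a median of -0.14, against 0.02 over the 6803 genes compared. It was at least 1.5-fold lower in 3 and at least 1.5-fold higher in 1, against 3.51% lower and 5.16% higher over those genes. The 3 were Lss, Fdps and Srebf2, and the 1 was Fdft1.

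Lss (plus strand of chromosome 10, 76531588 to 76557138) had 33 intron reads with cycloleucine and 74 without, while its exon reads were 831 and 703, a ratio change of -1.39 (-2.00 to -0.79). Fdps (minus strand of chromosome 3, 89093592 to 89101967) had 201 intron reads with cycloleucine and 336 without, and its ratio change was -0.95 (-1.23 to -0.67). Both lie below the middle 95% of genes, which ran from -0.66 to 0.72. Srebf2 (plus strand of chromosome 15, 82147266 to 82205376) had 533 intron reads with cycloleucine and 790 without. Its intron share of gene reads was 17.9% with cycloleucine and 24.8% without, and its ratio change was -0.60 (-0.78 to -0.42). Fdft1 went the other way, with 165 intron reads with cycloleucine and 95 without, and its ratio stood at 0.72 (0.33 to 1.11). The gene Ctsb overlaps Fdft1 and had 5036 exon reads with cycloleucine and 3976 without. No source used here gives whether counting used strand, and the part of such overlaps in the result was not tested.

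In Mvk the lower exon reads had no matching difference in introns. It had 99 intron reads with cycloleucine and 89 without, an intron change of -0.08 (-0.51 to 0.35) relative to all gene reads and a ratio change of 0.54 (0.08 to 1.0). In Srebf1 exon and intron levels were both lower relative to all gene reads, the introns holding 225 reads with cycloleucine and 232 without, and the ratio stood at 0.03. Fasn had more intron reads and a lower exon level, with 312 intron reads with cycloleucine and 221 without and a ratio change of 0.42 (0.17 to 0.67). Acaca had 905 and 1031 and a ratio change of -0.32 (-0.47 to -0.18).

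**Figure D3:**
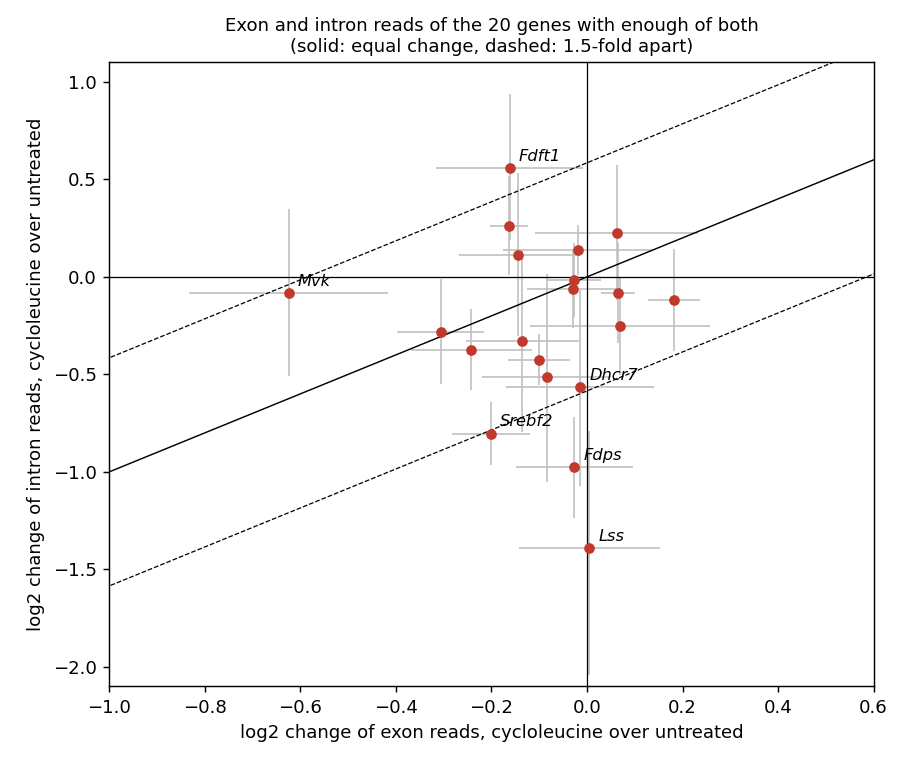
Log2 change of intron reads (y) against log2 change of exon reads (x), cycloleucine over untreated, both relative to all gene reads, for the 20 genes with enough of both, with 95% counting intervals as bars. Lss, Fdps and Srebf2 lie below the lower dashed line of 1.5-fold and Fdft1 lies above the upper one, while Mvk has lower exon reads at nearly equal intron reads.

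Of the 61 measured genes in the other lists of these pathways, 0 were past 1.5-fold on the log2 scale of RPKM plus 0.1. In plain RPKM 1, Ggps1, was past it. Among all 9613 measured features, 2.47% were at least 1.5-fold lower and 3.03% at least 1.5-fold higher on the log2 scale. Over those with an annotated transcript the shares were 1.87% and 2.16%. Of all 9613 features 4890 lay above 0, the background for the counts by list below. Acat2, which makes acetoacetyl-CoA for sterol synthesis, stood at -0.13. In SREBP processing and sterol-sensing degradation, 9 of 11 measured genes lay above 0, with a median of 0.05. Of these, Mbtps2, a protease that cleaves SREBP, passed only through the cycloleucine library. Scap, the escort of SREBP, was the lowest at -0.14 (-0.25 to -0.03), and Erlin1, a membrane protein of the endoplasmic reticulum that acts in degradation of sterol-sensing proteins, was the highest at 0.41 (0.23 to 0.62). Erlin1 had 562 exon reads with cycloleucine and 355 without.

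Isoprenoid branches, which start from the products of Fdps and its neighbours, spread widest. Ggps1, the geranylgeranyl diphosphate synthase, had 7.60 RPKM with cycloleucine and 5.06 without, from 575 and 325 exon reads, a log2 fold change of 0.58 (0.39 to 0.79), just short of 1.5-fold by this measure, and its plain RPKM was 1.502-fold higher with cycloleucine. Its junction reads, 68 with cycloleucine and 26 without, gave 1.14 (0.47 to 1.85). Coq2, of ubiquinone synthesis, was the lowest at -0.35 (-0.52 to -0.18). Of 10 measured genes 6 lay below 0.

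Sterol storage, efflux and LXR genes had the highest median of the lists compared, 0.14, with 4 of 6 measured genes above 0. Abca1, the transporter that loads cholesterol onto apolipoproteins and is a target of the sterol receptor LXR, had 1777 exon reads with cycloleucine and 1049 without, 5.37 and 3.73 RPKM and a log2 fold change of 0.51 (0.41 to 0.64). Its intron reads were also higher, 492 with cycloleucine and 300 without. Abcg1, another LXR target and sterol transporter, had 15.8 and 12.3 RPKM and stood at 0.36 (0.26 to 0.46). Abcg1 is named outside the naming rule, after its value was seen. Mylip, also known as an LXR target, was the lowest of this list at -0.07 (-0.37 to 0.21), and the LXR gene Nr1h3 had 9 and 11 exon reads and was not measured.

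In sterol uptake and trafficking, 6 of 9 measured genes lay above 0, and the highest was Lipa, the lysosomal lipase that frees cholesterol from its esters, at 0.29 (0.12 to 0.47). Other fatty acid synthesis and activation genes had a median of -0.03 over 12 measured genes, from Acacb, a second acetyl-CoA carboxylase, at -0.16 to Hacd2, a dehydratase of elongation, at 0.13. Acacb passed only through the untreated library, where it had 1.07 RPKM, against 0.952 with cycloleucine. Fatty acid oxidation genes had a median of 0.0089 over 10, from Acadl, a long-chain dehydrogenase, at -0.12 to Cpt1a, which brings fatty acids into mitochondria, at 0.14.

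**Figure D4:**
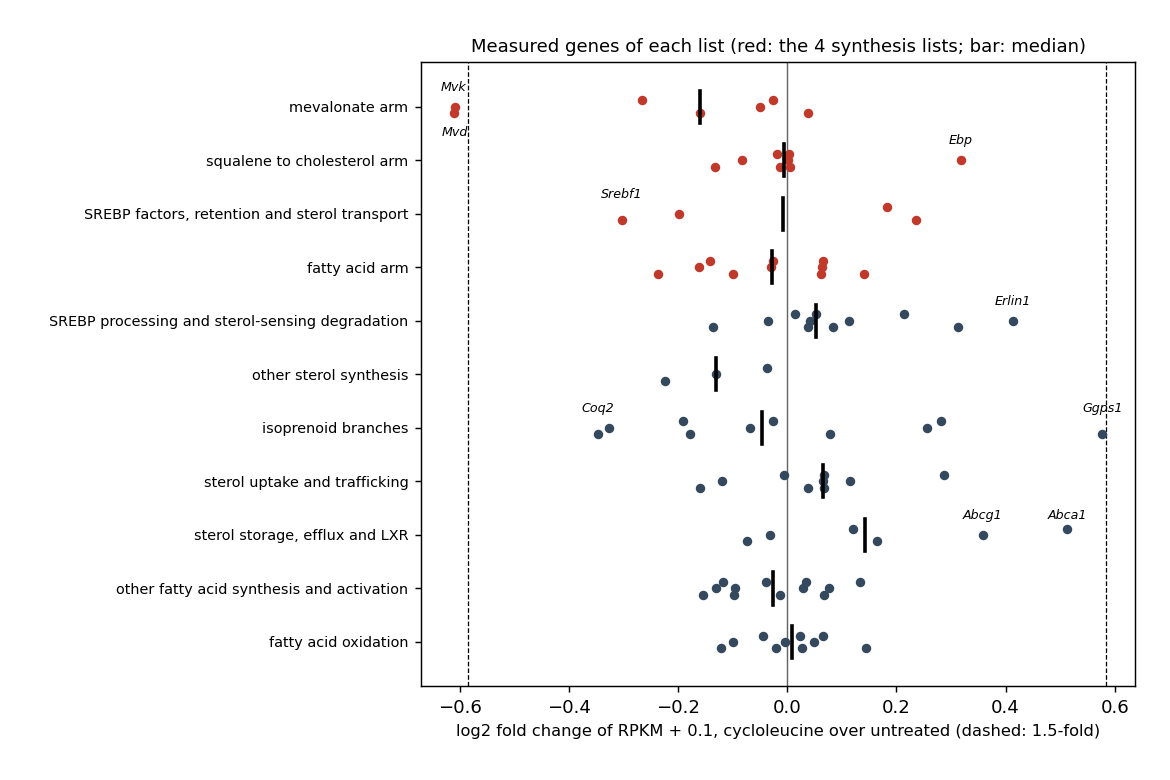
Log2 fold change of RPKM plus 0.1, cycloleucine over untreated (x), of each measured gene in the 4 lists described in full (red) and the 7 other lists of these pathways (dark), with a bar at each median and 1.5-fold dashed. Mvk and Mvd lie past the lower line, and Ggps1 and Abca1 are the highest points.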

How the data were processed

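RNA-seq of rRNA-depleted total RNA from 2 libraries, 1 per group, was analysed. The table holds read counts, which, per the file headers, the authors gave as total and unique reads in each gene and in its exons, introns and junctions, and RPKM, which the authors computed from them (43346 of 43346 values in each library returned their reads within 0.02 reads plus a share of 0.0001). The build is mm10, per the submitters' processing notes; no source used here gives the aligner, counter or strand use. The table had 0 columns of other libraries. Its starts count from 0 and are printed with 1 added. Python 3.11.15, numpy 2.4.6, pandas 2.3.3 and scipy 1.17.1 were used. No test between groups was possible, so a 1.5-fold rule of size and 95% exact (Clopper-Pearson) counting intervals of read ratios were used, with normal intervals for intron to exon ratios (0.5 added to each count). The size rule and intervals were tested on simulated counts that held counting error only. That test does not cover differences between cultures or PCR copies. The 32 genes and the other lists were chosen with earlier results of these data known. Named genes were all 32 and the highest and lowest measured gene of each other list, of which part is printed. Some genes of the other lists are not reported here. Alternatives were another pseudocount, filter, scaling, read class or fold. Promoters came from RefSeq, and older symbols of 2 listed pathway genes and 2 markers were matched through RefSeq synonyms.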

Additional observations from a re-analysis of the deposited data

How the results depend on the processing

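No paired analysis was possible because there was 1 library a group, so none could be left out. The number of genes at least 1.5-fold lower, 2 as reported, was 0 with a pseudocount of 1, 1 with an RPKM of at least 5 (Mvk, since Mvd falls below that level), 0 with uniquely placed reads and 0 at 2-fold. Mvk and Mvd stood at -0.52 and -0.41 with a pseudocount of 1. With unique reads, where the scaling total changed too, they stood at -0.58 and -0.58. The number at least 1.5-fold higher, 0 as reported, was 2 with junction reads (Ebp 1.04 and Scd1 1.52), where Stard4 was also 1.5-fold lower. These rest on few junction reads, 30 with cycloleucine and 12 without in Ebp, 10 and 2 in Scd1, and 13 and 21 in Stard4. The share of all features past the threshold was not computed under the alternatives. No median of the 3 arms left the range between the median bounds of its genes' counting intervals under the 7 alternatives tried for it. With unique reads, where the scaling total changed too, the medians near 0 changed sign. They were 0.02 from squalene to cholesterol and 0.0078 in the fatty acid arm. Of 196 values of single genes, 13 left their counting interval, all among the 29 from junction reads. They were those of Hmgcs1, Fdps, Ebp, Sc5d, Dhcr7, Insig1, Stard4, Acaca, Fasn, Elovl6, Scd1, Scd2 and Elovl5. The 13 are best read against these 29. Changing only the filter left each gene's value as it was, so those 22 and 29 values could not move. Trimmed mean scaling (29 values) shifted values by about 0.0013 in log2, so it could hardly move them. All 20 intron to exon ratios stayed within their counting intervals with unique reads.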

Other observations

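The genes below were chosen after the values above were seen. Mvk shares its promoter region with Mmab, a gene of vitamin B12 metabolism that runs the other way, and the 2 gene starts lie 210 bases apart on chromosome 5. Mmab had 182 exon reads with cycloleucine and 218 without, 1.61 and 2.28 RPKM and a log2 fold change of -0.47 (-0.79 to -0.21). Its intron reads were 67 with cycloleucine and 46 without, so in Mmab as in Mvk exon reads were lower without lower intron reads.

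The steps with an undetected or low gene were looked at for related genes. Lbr, which also has sterol C14 reductase activity, had 51.6 RPKM with cycloleucine and 52.4 without, against 0.243 and 0.296 for Tm7sf2. Me2, the mitochondrial malic enzyme, had 12.97 RPKM with cycloleucine and 13.9 without. Of other genes with Hsd17b symbols, Hsd17b10 (50.9 and 47.3 RPKM), Hsd17b12 (18.03 and 17.1) and Hsd17b4 (9.08 and 8.74) were expressed, and Hsd17b1, Hsd17b2, Hsd17b3, Hsd17b6, Hsd17b11, Hsd17b13 and Hsd17b14 each had at most 13 exon reads in a library. The gene model next to the start of Hsd17b7, 3110045C21Rik, had 0 exon reads with cycloleucine and 1 without, and Ddr2 beyond it had 56 and 38. Uap1, the next annotated gene after Ddr2 within the range looked at, had 893 and 865.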
